A study of Mus musculus with 6 samples.

Results

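Pleiotrophin (Ptn), midkine (Mdk), hepatocyte growth factor (Hgf), its receptor Met, and the heparan sulphate proteoglycans syndecan 1 to 4 (Sdc1, Sdc2, Sdc3 and Sdc4) and glypican 1 and 3 (Gpc1 and Gpc3) are described here in differentiating muscle stem cells with and without the long noncoding RNA lncMREF. These 10 genes were chosen by symbol as heparin-binding growth factors, a receptor and heparan sulphate carriers, and Ptn was included because it was among the largest rises in this same comparison. All 10 were matched to an Ensembl identifier among the 21666 genes of the deposited count matrix, and all 10 passed the low-count filter. The samples were mouse skeletal muscle satellite cells, the resident stem cells of muscle, kept for 2 days in differentiation. One group came from lncMREF knockout (KO) mice and the other from wild-type (WT) mice, with 3 libraries of total RNA each. The labels give the KO allele no further detail, and they do not say whether the libraries of a genotype came from separate animals or cultures, so errors and p-values here reflect library-to-library variation alone, and that variation may be technical. lncMREF was not matched to a gene identifier, so the knockout itself was not checked from the counts.

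Heparan sulphate is a sulphated sugar chain carried by core proteins at the cell surface and in basement membranes, and many growth factors bind it on their way to their receptors. Syndecans span the membrane and glypicans are held in it by a lipid anchor. In muscle, Hgf is known for activating quiescent satellite cells through Met, and Sdc3 and Sdc4 are known as surface proteins of those stem cells. Ptn and Mdk are a small family of secreted, heparin-binding factors that act on growing and regenerating tissue.

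Library totals ran from 17919826 to 23646805 counts in KO and from 20193337 to 28430678 counts in WT. Markers of the labelled cell type and of its differentiation were present. The 8 myogenic markers (Myod1, Myog, Myf5, Pax7, Cdh15, Itga7, Des and Myh3) summed to 2336 to 2439 CPM in KO libraries and to 11222 to 11736 CPM in WT libraries. CPM divide each count by the library size after scaling. Most of that sum was Myh3 (947.7 CPM in KO, 5695 CPM in WT) and Des (574.1 CPM in KO, 3099 CPM in WT). By edgeR's test 6 of the 8 were lower in KO and Myf5 was not called. Pax7 was higher (15.1 CPM in KO, 10.5 CPM in WT, log2 fold change 0.53, SE 0.10). Markers of other cells also differed between the same libraries. The sum of 8 Schwann cell markers was 909.1 to 933.3 CPM in KO and 461.8 to 463.3 CPM in WT, and the sum of 9 macrophage markers was 339.9 to 352.4 CPM in KO and 105.2 to 116.1 CPM in WT. The sum of 9 endothelial markers was 75.7 to 81.2 CPM in KO and 313.5 to 321 CPM in WT. The sum of 5 tendon markers was 278.9 to 288.5 CPM in KO and 162.9 to 167.3 CPM in WT, but Thbs4 carried that direction. Without it the other 4 tendon markers summed to 72.1 to 76.0 CPM in KO and to 151.8 to 157.8 CPM in WT, since Scx, the tendon transcription factor, was lower (46.3 CPM in KO, 140.7 CPM in WT) and Mkx, Tnmd and Fmod were higher. The sum of 6 fibro-adipogenic markers was 246.8 to 260.3 CPM in KO and 307.2 to 314.9 CPM in WT, and without Dcn it was 106.0 to 114.5 CPM in KO and 93.0 to 95.9 CPM in WT. Of the 5 tested by edgeR, Dcn, Ly6a and Dpt were called lower in KO and Lum was not called. Pdgfra was called higher (90.5 CPM in KO, 69.5 CPM in WT). Without its gene of largest difference in CPM, each of the myogenic, endothelial, macrophage, Schwann cell and proliferation sums kept its direction. By edgeR's test, 6 of 8 Schwann cell markers were higher and 1, Erbb3, lower in KO, all 8 macrophage markers tested were higher, and all 9 endothelial markers were lower. Markers of smooth muscle and pericytes (7 genes) summed to 1390 to 1478 CPM in KO and to 1439 to 1507 CPM in WT. Without Pdgfrb, the gene of largest difference in CPM, they summed to 541.0 to 576.5 CPM in KO and to 664.2 to 696.9 CPM in WT. By edgeR's test 2 of the 7 were higher in KO and 3 lower, and nothing is read from that count. For all marker counts given here, the shares over the 15518 genes tested were 33.7% higher and 33% lower in KO. The sum of 8 proliferation genes was 567.6 to 616.7 CPM in KO and 152.7 to 154.6 CPM in WT. Only the macrophage marker Aif1 had 0 counts in any library, which was 1 of the WT libraries. Genes of the mitochondrial chromosome took 2.07% to 2.3% of counts in KO and 3.97% to 4.18% in WT. The part of these differences in the results below was not tested.

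Promoters are shown for Ptn, Gpc3 and Sdc4, which had the largest fold changes among the members with a sequence, and for Hgf as the ligand that differed the other way from Ptn. RefSeq promoters (GRCm38.p6, 300 bases each across the start) were found by symbol for 7 of the 10 members, and Hgf had entries for both of its annotated starts. Mdk, Sdc2 and Gpc1 had no entry. The motif searched was CANNTG, the E-box read by Myod1 and other basic helix-loop-helix factors. It equals its own reverse complement in the fixed letters, so that both strands are covered, and 72.3% of 32851 promoters in the table hold it. It occurred in 3 of the 8 member promoters, those of Met, Sdc1 and the upstream start of Hgf. The sequences are written 5′ to 3′ on the gene's strand, with CANNTG in capitals, for Ptn at chr6:36810130-36810429 on the minus strand, Gpc3 at chrX:52613925-52614224 on the minus strand, Sdc4 at chr2:164443139-164443438 on the minus strand and Hgf at chr5:16553245-16553544 on the plus strand. 
Ptn: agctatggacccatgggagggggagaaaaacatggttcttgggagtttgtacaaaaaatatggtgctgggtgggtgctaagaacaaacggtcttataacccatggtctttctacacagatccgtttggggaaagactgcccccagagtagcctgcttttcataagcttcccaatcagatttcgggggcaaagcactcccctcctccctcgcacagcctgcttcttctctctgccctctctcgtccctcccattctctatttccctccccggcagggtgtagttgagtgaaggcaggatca
Gpc3: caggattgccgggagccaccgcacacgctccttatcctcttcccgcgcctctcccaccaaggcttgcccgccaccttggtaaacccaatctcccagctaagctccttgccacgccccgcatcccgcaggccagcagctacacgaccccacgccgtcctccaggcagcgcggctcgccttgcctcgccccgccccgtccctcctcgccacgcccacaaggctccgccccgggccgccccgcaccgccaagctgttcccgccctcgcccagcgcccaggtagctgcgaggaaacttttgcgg
Sdc4: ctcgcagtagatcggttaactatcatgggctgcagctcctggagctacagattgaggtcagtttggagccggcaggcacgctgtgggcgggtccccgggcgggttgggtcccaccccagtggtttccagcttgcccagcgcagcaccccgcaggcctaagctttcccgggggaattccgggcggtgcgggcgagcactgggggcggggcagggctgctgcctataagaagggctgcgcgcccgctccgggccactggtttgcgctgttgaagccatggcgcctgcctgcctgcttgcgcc
Hgf: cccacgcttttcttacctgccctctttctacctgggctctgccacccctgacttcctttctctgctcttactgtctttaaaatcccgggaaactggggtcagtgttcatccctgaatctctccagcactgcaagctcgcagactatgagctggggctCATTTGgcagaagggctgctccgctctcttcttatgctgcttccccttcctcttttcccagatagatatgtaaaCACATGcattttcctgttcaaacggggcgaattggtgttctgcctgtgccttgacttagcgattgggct
The Ptn, Gpc3 and Sdc4 promoters held no CANNTG. The Hgf promoter held CATTTG at -93 and CACATG at -19, counted from the transcription start to the first base of the motif. The Gpc3 promoter had a GC content of 70.7% and the Sdc4 promoter one of 67.7%, whereas the Ptn and Hgf promoters had 52% and 51.3%, close to the median of 52.7% over the whole table. The GC-box GGGCGG, searched on both strands and present in 35.7% of all promoters, occurred 4 times each in the Gpc3 and Sdc4 promoters and not in those of Ptn and Hgf.

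Both members of the pleiotrophin family stood higher in KO cells. Ptn (ENSMUSG00000029838, mm10 chromosome 6, 36714929 to 36810220, minus strand) had 31.6, 29.7 and 26.7 CPM in the KO libraries, against 2.18, 1.95 and 1.87 CPM in the WT libraries. Each KO library was above every WT library by more than 10-fold. The means were 29.3 ± 2.45 CPM in KO and 2.00 ± 0.163 CPM in WT (SD, n = 3 each). KO over WT this is 3.88 on the log2 scale (SE 0.12) or 14.7-fold. These are the values that chose Ptn, so they are given as a description with no test. The rule set no threshold, and by fold change Ptn came 14th of the 15518 genes tested, just after Gm45869 (3.90) and just before Hoxd11 (3.76). Its WT level rests on 37 to 50 counts a library and its KO level on 507 to 747.

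Mdk (ENSMUSG00000027239, chromosome 2, 91929805 to 91932297), the relative of Ptn, had 18.8, 19.2 and 20.6 CPM in the KO libraries, against 4.32, 5.48 and 5.45 CPM in the WT libraries. The genotypes did not overlap. The means were 19.5 ± 0.934 CPM in KO and 5.08 ± 0.661 CPM in WT (SD, n = 3 each), so that KO over WT was 1.94 on the log2 scale (SE 0.11) or 3.84-fold. Mdk was the more abundant of the pair per length in every library. Levels per length are CPM divided by the kilobases of annotated exon (CPM per kb). The ratio of Ptn to Mdk on that scale was 0.646, 0.598 and 0.50 in the KO libraries and 0.195, 0.137 and 0.132 in the WT libraries, so the pair lay closer together in KO.

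Hgf (ENSMUSG00000028864, chromosome 5, 16553495 to 16620152), the ligand of Met, differed in the other direction. It had 16.6, 16.2 and 15.3 CPM in the KO libraries, against 24.6, 25.3 and 24.7 CPM in the WT libraries. All KO libraries were below all WT libraries. Hgf shares 6.7% of its exonic bases with other genes. The log2 fold change was -0.63 (SE 0.08), from means of 16.1 ± 0.691 CPM in KO and 24.9 ± 0.367 CPM in WT (SD, n = 3 each). Met (ENSMUSG00000009376, chromosome 6, 17463800 to 17573980), the receptor tyrosine kinase of Hgf, had 32.4, 29.7 and 29.6 CPM in the KO libraries, against 22.6, 26 and 23.3 CPM in the WT libraries. Met was higher in each KO library than in each WT library, with a log2 fold change of 0.35 (SE 0.07). Ligand and receptor thus differed in opposite directions. Met per length was 1.82, 1.71 and 1.81 times Hgf in the KO libraries and 0.861, 0.963 and 0.882 times Hgf in the WT libraries.

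**Figure D1:**
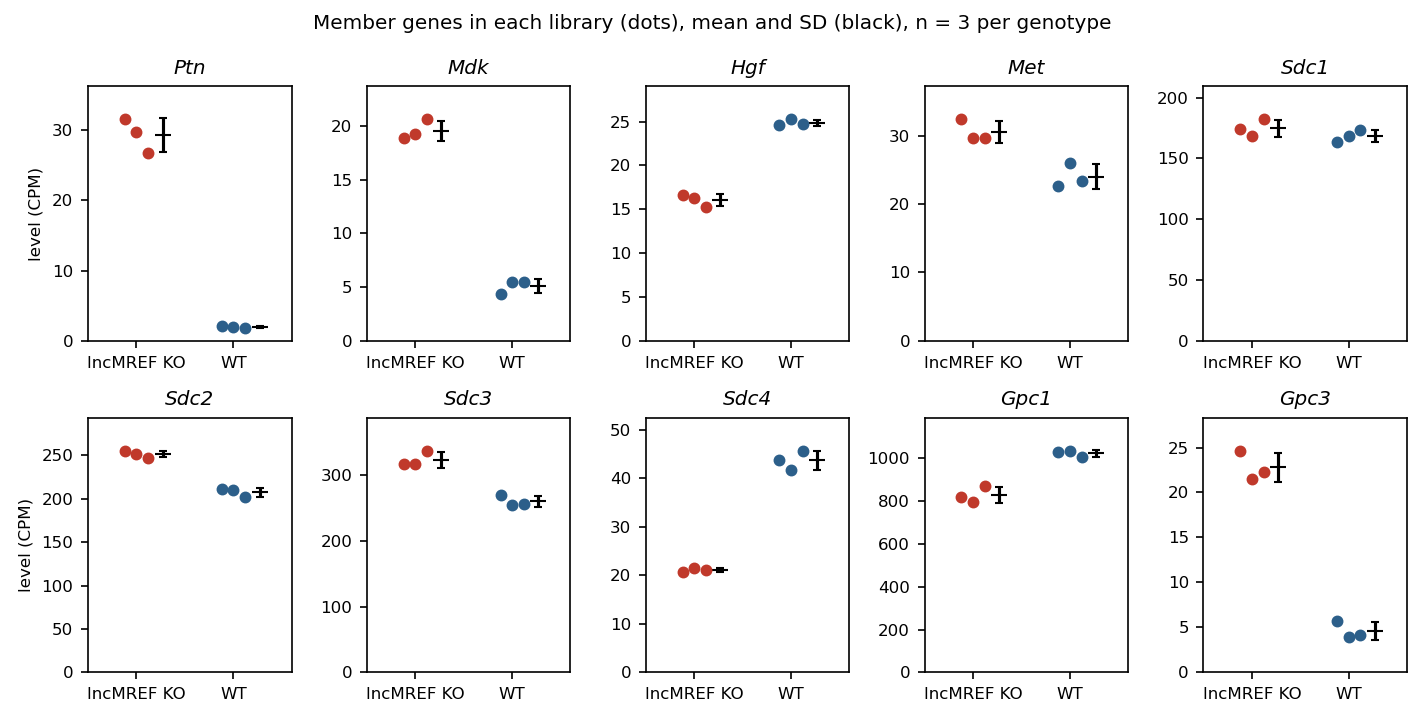
Level of each member gene in every library, in CPM (vertical axes start at 0 and differ between panels), with lncMREF KO left of WT; dots are single libraries, and the black mark with its bar is the mean ± SD of 3 libraries. The genotypes overlap for Sdc1 and do not overlap for the other 9 genes, and the widest separations by fold are those of Ptn, Gpc3 and Mdk.

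Among the 4 syndecans, Sdc4 was the one that stood lower in KO. Sdc4 (ENSMUSG00000017009, chromosome 2, 164424247 to 164443887), which helps to link the matrix to focal adhesions, had 20.8, 21.6 and 21 CPM in the KO libraries, against 43.8, 41.8 and 45.7 CPM in the WT libraries. The libraries did not overlap, and the log2 fold change was -1.05 (SE 0.07), a level 2.07 times higher in WT. Sdc3 (ENSMUSG00000025743, chromosome 4, 130792537 to 130826319) had 315.9, 316.5 and 336.7 CPM in the KO libraries, against 269.1, 254.3 and 255.9 CPM in the WT libraries, a log2 fold change of 0.31 (SE 0.04). Its exons share 7.73% of their bases with antisense genes, and no source says whether counting used strand. The pair of stem cell syndecans thus differed in opposite directions, both without overlap between genotypes.

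Sdc2 (ENSMUSG00000022261, chromosome 15, 32920723 to 33034935), a syndecan common on cells of mesenchymal origin, had 255.4, 252 and 247.5 CPM in the KO libraries, against 211.3, 209.6 and 201.9 CPM in the WT libraries. It was higher in KO without overlap, with a log2 fold change of 0.28 (SE 0.04). Sdc1 (ENSMUSG00000020592, chromosome 12, 8771323 to 8793715), best known from epithelial and plasma cells, had 173.9, 168.1 and 182.1 CPM in the KO libraries, against 163.3, 168.5 and 172.9 CPM in the WT libraries. Its libraries overlapped between genotypes, and the log2 fold change of 0.05 had an SE of 0.04. Sdc1 was the member whose genotypes could not be separated by their libraries.

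Summed over the 4 genes, the syndecan level per length was 179, 176.9 and 182.5 CPM per kb in the KO libraries and 164.9, 162.5 and 163.3 CPM per kb in the WT libraries. The make-up of that sum differed in its smallest part. Sdc4 held 4.56%, 4.79% and 4.52% of it in the KO libraries, against 10.4%, 10.1% and 11% in the WT libraries. Sdc2 held 39.8 ± 1.14% in KO and 36 ± 0.813% in WT, Sdc3 30.1 ± 0.688% in KO and 26.5 ± 0.638% in WT, and Sdc1 25.6 ± 0.633% in KO and 27 ± 0.916% in WT (SD, n = 3 each). The shares of Sdc2 and Sdc3 were larger in every KO library than in every WT library.

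**Figure D2:**
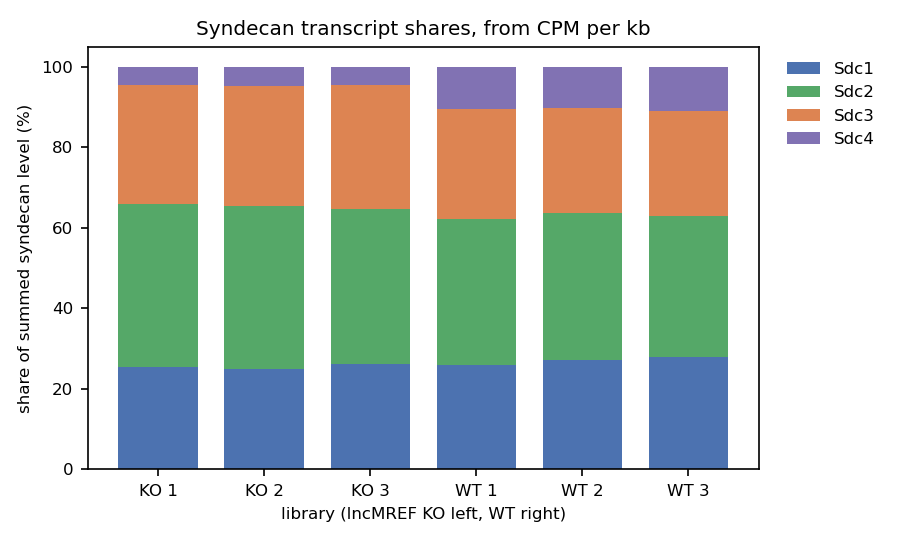
Share of each syndecan in the summed syndecan level of a library, in percent, from CPM per kb; each bar is 1 library, with the lncMREF KO libraries left of the WT libraries. The Sdc4 segment is 4.52% to 4.79% in KO libraries and 10.1% to 11% in WT libraries, and Sdc2 is the largest segment in all 6.

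The glypicans Gpc1 and Gpc3 also differed in opposite directions. Gpc3 (ENSMUSG00000055653, chromosome X, 52272426 to 52613950), known for restraining growth in the embryo, had 24.6, 21.5 and 22.2 CPM in the KO libraries, against 5.7, 3.95 and 4.18 CPM in the WT libraries. The lowest KO library was above the highest WT library, and the log2 fold change was 2.30 (SE 0.11) or 4.94-fold. Gpc3 is X-linked, and the X-linked RNA Xist also differed, at 416.8 to 478.4 CPM in KO and 152.3 to 155.3 CPM in WT, while Y-linked genes summed to 88.2 to 96.8 CPM in KO and 127.3 to 138.5 CPM in WT. Over the 522 X-linked genes tested the median log2 fold change was -0.02, with 172 called higher and 189 lower. The part of sex-linked differences in the Gpc3 result was not tested.

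Gpc1 (ENSMUSG00000034220, chromosome 1, 92831645 to 92860779) was the member with the highest level per length in both genotypes. It had 817.6, 796.4 and 868.3 CPM in the KO libraries, against 1030, 1035 and 1003 CPM in the WT libraries. Gpc1 was lower in each KO library than in each WT library, with a log2 fold change of -0.31 (SE 0.04). Its exons share 18.9% of their bases with Ankmy1 on the opposite strand, which was itself at 1.94 CPM in KO and 4.04 CPM in WT. Gpc1 per length was 17.3, 19.3 and 20.4 times Gpc3 in the KO libraries and 94.3, 136.6 and 125.2 times Gpc3 in the WT libraries. Gpc1 made up 45.5% to 46.9% of the summed level of the 6 core proteins in KO libraries and 54.1% to 55% in WT libraries. The sum itself was 346.6, 339.3 and 359 CPM per kb in KO and 366.7, 364.5 and 359.4 CPM per kb in WT, with every KO library below every WT library and the nearest pair 359 and 359.4. That direction depends on the scaling. Library sizes were multiplied by 1.06 in KO and by 0.941 to 0.943 in WT, and with library size only the direction of this sum would turn.

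Counted together, 6 members were higher and 3 lower in KO in the fit across all genes by edgeR's quasi-likelihood test at an adjusted p under 0.05. The same fit called 66.7% of the 15518 genes tested, 33.7% higher and 33% lower in KO. The same 6 and 3 members showed no overlap between genotypes, as did 69.4% of all genes tested (35.3% higher and 34.1% lower in KO). The median log2 fold change was 0.30 over the 10 members and 0.02 over all genes tested. The members were picked with this comparison known, Ptn for its rise, so nothing is read from these counts or from the median. In bulk RNA, a change in the number of cells of a type and a change in RNA per cell cannot be told apart. Scaling by library size only moved the median of all genes to 0.19 and the share of calls that were higher to 66.1%, in place of 50.5%; every member kept its direction there.

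The order of the levels per length was the same at the top in both genotypes and differed below it. Gpc1 led with 160.4 ± 7.16 CPM per kb in KO and 198.2 ± 3.25 CPM per kb in WT, and Sdc2 followed with 71.3 ± 1.12 in KO and 58.9 ± 1.42 in WT (SD, n = 3 each). In KO, Sdc3 (53.9 ± 1.98), Sdc1 (45.9 ± 1.86) and Mdk (14.8 ± 0.705) came next without overlap between neighbours. Ptn (8.55 ± 0.714), Gpc3 (8.48 ± 0.604) and Sdc4 (8.30 ± 0.159) overlapped in KO, and Met (3.98 ± 0.206) and Hgf (2.23 ± 0.0961) ended the order. In WT, Sdc1 (44.2 ± 1.26) and Sdc3 (43.4 ± 1.36) overlapped, Sdc4 (17.2 ± 0.768) stood alone, Mdk (3.84 ± 0.499) overlapped with Hgf (3.46 ± 0.0511), and Met (3.12 ± 0.233) was just below them. Gpc3 (1.71 ± 0.353) and Ptn (0.582 ± 0.0476) were the 2 lowest in WT. Ptn was thus 6th of 10 in KO and last in WT, and Sdc4 was 8th in KO and 5th in WT.

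**Figure D3:**
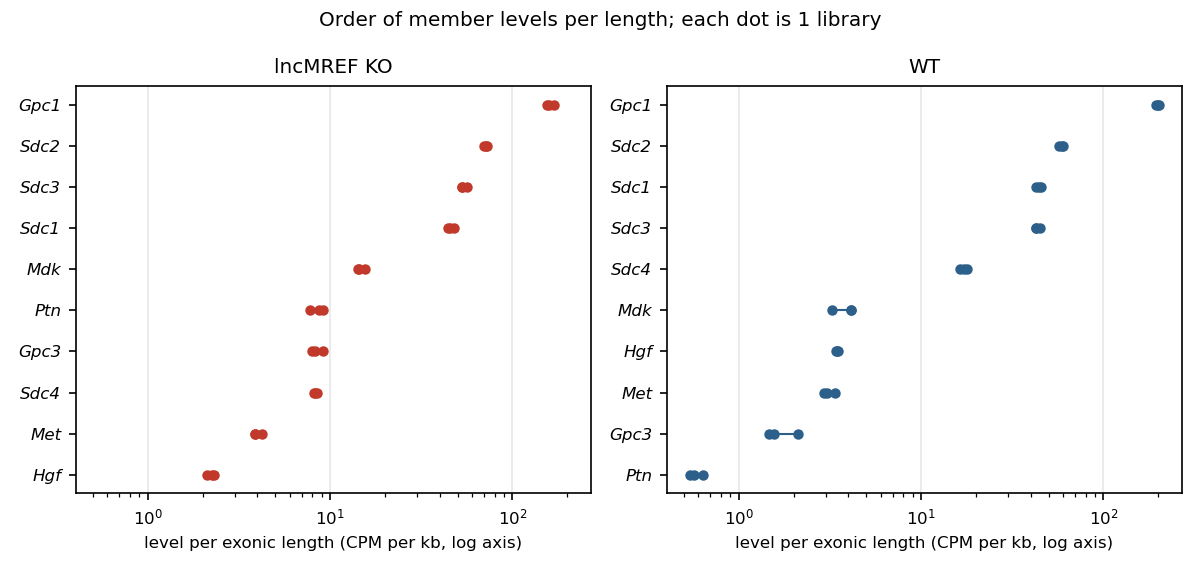
Members ordered by mean level per length, in CPM per kb on a log axis, in lncMREF KO (left) and WT (right); each dot is 1 library and the line joins the lowest and highest. Gpc1 and Sdc2 lead in both genotypes, Ptn is 6th in KO and last in WT, and Hgf is last in KO and 7th in WT.

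The 5 protein-coding genes whose profile was most like that of Ptn were found by the Euclidean distance between log2 CPM profiles over the 6 libraries, each centred on its own mean, among 13559 candidates. In order they were Col14a1, a fibril-associated collagen (distance 0.614; 80.4 CPM in KO, 6.71 in WT), Rtl3, a gene derived from a retrotransposon (0.639; 40.9 in KO, 3.99 in WT), the myelin gene Mbp (0.661; 25 in KO, 2.21 in WT), the myeloid signalling adaptor Tyrobp (0.671; 5.51 in KO, 0.488 in WT) and the tendon matrix protein Thbs4 (0.679; 208.8 in KO, 10.5 in WT). Mbp is also on the Schwann cell list, Tyrobp on the macrophage list and Thbs4 on the tendon list above. With 2 genotypes, such a likeness mostly restates a similar fold change.

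Beyond the members, 85 other genes of the heparan sulphate pathway were followed in 7 lists, of which 71 could be tested, 8 were in the matrix below the filter and 6 were not in it. By edgeR's quasi-likelihood test at an adjusted p under 0.05, 32 of the 71 (45.1%) were higher and 22 (31%) lower in KO, against 33.7% and 33% of all genes tested. Their median log2 fold change was 0.06, against 0.02 over all genes. With library size scaling the counts were 41 higher and 19 lower; of the genes named below, Plau (-0.09, adjusted p 0.103) and Hpse (-0.18, adjusted p 0.287) were then not called, and Ptprs (0.13), Ext2 (0.19), Ndst1 (0.23), Hs2st1 (0.14) and Adam10 (0.22) were called higher. The per-library tables disagree with the matrix for most genes, and a row there may not count the gene it names. There the sign turned for Hspg2 (-1.77), Plat (0.40), Grb2 (0.34), Papss1 (-0.29), Ndst3 (-0.31), Gusb (-0.02), Adam17 (0.47) and Mmp14 (-0.07). Of these, Plat, Papss1, Gusb and Mmp14 were not called there, and the turns are not read as results about the named genes. Agrn, Spint2 and Hpse were not called there, and Ndst1 was called higher (0.54, adjusted p 1.94e-07).

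Among the other core proteins, 4 of 7 tested rose (57.1%) and 1 fell (14.3%), against 33.7% and 33% of all genes tested. Collagen XVIII (Col18a1), a basement membrane proteoglycan, rose to 1534 ± 15.4 CPM in KO, against 676.3 ± 7.36 CPM in WT (SD, n = 3 each; log2 fold change 1.18, SE 0.04, edgeR adjusted p 3.31e-24). Perlecan (Hspg2), the large basement membrane proteoglycan, rose by 0.75 (SE 0.04, adjusted p 4.27e-17) to 2191 ± 122 CPM, against 1306 ± 52.5 CPM in WT. Of the glypicans that are not members, Gpc6 rose by 0.78 (SE 0.06) and Gpc4 fell by 0.67 on the log2 scale (SE 0.04), to 126.2 ± 1.96 CPM in KO, against 200.1 ± 5.78 CPM in WT. Agrin (Agrn), known for clustering acetylcholine receptors, rose by 0.14 (SE 0.04). Gpc2 (0.27, SE 0.25) and betaglycan Tgfbr3 (-0.13, SE 0.08) were not called, although Tgfbr3 was called lower without KO replicate 3 (-0.20, adjusted p 0.0331), which made 2 lower calls in this list in place of 1. Over all settings with the matrix the adjusted p of Tgfbr3 ran from 0.0331 to 0.661. Gpc2 shares 55.6% of its exonic bases with other genes, and Gpc5 was not in the matrix.

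Of the receptors and partners of Ptn and Mdk, 2 of 6 tested rose and 2 fell, 33.3% each and so close to the shares over all genes. The receptor phosphatase Ptprz1, to which both ligands bind, rose to 12.4 ± 1.12 CPM in KO, against 5.0 ± 0.617 CPM in WT (log2 fold change 1.33, SE 0.12, edgeR adjusted p 7.5e-12; SD, n = 3 each). The endocytic receptor Lrp1, which binds Mdk among many ligands, had 2692, 2431 and 2660 CPM in the KO libraries, against 1463, 1545 and 1425 CPM in the WT libraries, a rise of 0.81 (SE 0.04, adjusted p 4.67e-18). The integrin subunit Itgb3 fell by 0.75 on the log2 scale (SE 0.05), and Itgav by 0.66 (SE 0.09). The related phosphatase Ptprs (-0.04, SE 0.04) and nucleolin, Ncl (-0.02, SE 0.09), were not called, and Ncl was called lower without KO replicate 2 (-0.12, adjusted p 0.017; 0.017 to 0.976 over the settings with the matrix). The receptor tyrosine kinase Alk averaged 0.0478 CPM in KO and 0.0351 CPM in WT and was not tested, and Ltk was not in the matrix.

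Around Hgf and Met, 4 of 10 genes tested rose (40%) and 5 fell (50%), against 33.7% and 33% of all genes tested. Hgf is secreted as an inactive chain that proteases cut, and the plasminogen activators Plau and Plat fell (log2 fold changes -0.26 and -0.68, SE 0.05 each), Plat to 74.0 ± 3.45 CPM in KO, against 118.7 ± 4.44 CPM in WT (edgeR adjusted p 1.92e-14; SD, n = 3 each). Of the Met adaptors, Gab1 rose by 0.75 (SE 0.07) and Grb2 fell by 0.59 (SE 0.05), and the ubiquitin ligase Cbl, which takes Met out of signalling, rose by 0.51 (SE 0.06). The protease inhibitors Spint1 and Spint2 changed at levels near the limit of detection. Spint2 fell by 1.59 (SE 0.29, adjusted p 1.45e-05), to 0.664 CPM in KO, against 1.98 CPM in WT, and Spint1 rose by 1.08 (SE 0.41, adjusted p 0.021), to 0.823 CPM in KO, against 0.381 CPM in WT. The Spint1 call was lost without KO replicate 2 (0.63, adjusted p 0.268), WT replicate 1 (1.01, 0.0675) or WT replicate 2 (0.89, 0.0903), and with DESeq2 (1.09, 0.0715), and its adjusted p ran from 0.00769 to 0.268 over the settings with the matrix. The protease St14 rose by 0.82 (SE 0.32, adjusted p 0.025), a call lost without KO replicate 1 (0.63, 0.15), WT replicate 1 (0.84, 0.0563) or WT replicate 3 (0.52, 0.191), and with DESeq2 (0.80, 0.0741), with a range of 0.00705 to 0.191. Without WT replicate 1 the list had 2 higher calls in place of 4. The receptor Mst1r was not called (-0.47, SE 0.24, adjusted p 0.0784), but was called lower without KO replicate 2 (-0.66, 0.0366) or WT replicate 1 (-0.60, 0.0452), within a range of 0.0366 to 0.26.

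Of 12 genes that assemble the chain, all tested, 3 (25%) rose and 4 (33.3%) fell, close to or below the 33.7% and 33% of all genes tested, so nothing is read from these counts. One of the 3 rises, that of Extl2 (0.16, SE 0.07, adjusted p 0.0334), was lost without the filter, with DESeq2 and without any 1 library other than KO replicate 3, with an adjusted p of 4.02e-05 to 0.12 over the settings with the matrix. The polymerase subunit Ext1 fell by 0.45 (SE 0.04, edgeR adjusted p 2.46e-11), to 154.3 ± 4.43 CPM in KO, against 210.6 ± 4.93 CPM in WT (SD, n = 3 each), whereas its partner Ext2 was not called (0.02, SE 0.05). The largest fall was that of the related Extl1, by 1.96 (SE 0.16), to 2.2 ± 0.573 CPM in KO, against 8.59 ± 0.638 CPM in WT, and Extl3 and the kinase Fam20b also fell (-0.43 and -0.54, SE 0.05 each). Xylosyltransferase Xylt2, which starts the chain on its core protein, rose by 0.38 (SE 0.07), and the linker enzyme B4galt7 rose by 0.35 (SE 0.06). With library size scaling 5 assembly genes were higher in place of 3.

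Of 15 sulphation genes tested, 6 (40%) rose and 5 (33.3%) fell, against 33.7% and 33% of all genes; the calls of Ndst2 (0.20, adjusted p 0.0101) and Hs3st1 (-1.19, adjusted p 0.0169) were lost in some settings, with adjusted p up to 0.0897 and 0.0659. Glce, the epimerase of the chain, rose to 104 ± 8.79 CPM in KO, against 71 ± 1.21 CPM in WT (log2 fold change 0.55, SE 0.05, edgeR adjusted p 5.8e-11; SD, n = 3 each), and Papss1, which makes the sulphate donor, rose by 0.44 (SE 0.06). The 6-O-sulphotransferases Hs6st1 and Hs6st2 fell by 0.31 (SE 0.04) and 0.74 (SE 0.06), the second to 49.8 ± 3.35 CPM in KO, against 83.1 ± 3.3 CPM in WT. The N-sulphotransferase Ndst1 was at 227.6 ± 9.7 CPM in KO and 218.7 ± 7.09 CPM in WT and was not called (0.06, SE 0.04), and neither was the 2-O-sulphotransferase Hs2st1 (-0.03, SE 0.05). The related Ndst3 rose by 1.25 (SE 0.15) at 7.73 CPM in KO and 3.28 CPM in WT. The 3-O-sulphotransferases were low: Hs3st3b1 fell by 1.56 (SE 0.23), to 1.31 CPM in KO, against 3.82 CPM in WT, and Hs3st3a1 rose by 1.38 (SE 0.33), to 1.38 CPM in KO, against 0.536 CPM in WT. Hs3st3a1 and Hs3st3b1 have similar sequences, and 32.9% of the exonic bases of Hs3st3a1 are shared with another gene, so their counts may be uncertain.

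Of 10 genes tested that edit or break down the chain, 7 (70%) were higher and 2 (20%) lower, against 33.7% and 33% of all genes tested. The lysosomal enzymes Naglu, Sgsh, Idua, Hgsnat, Gusb and Ids rose by 0.86, 0.51, 0.45, 0.43, 0.34 and 0.27 on the log2 scale (SE 0.05 to 0.08), Naglu to 65.8 ± 3.84 CPM in KO, against 36.2 ± 2.25 CPM in WT (edgeR adjusted p 1.18e-14; SD, n = 3 each). Sgsh shares 21.6% of its exonic bases with other genes. The 2 extracellular endosulphatases, which remove 6-O-sulphates from finished chains, moved in opposite directions. Sulf1 fell to 357.8 ± 6.58 CPM in KO, against 474.2 ± 7.02 CPM in WT (-0.41, SE 0.04, adjusted p 6.02e-11), and Sulf2 rose to 194.7 ± 8.74 CPM in KO, against 148.2 ± 2.85 CPM in WT (0.39, SE 0.04, adjusted p 1.06e-09). Heparanase, Hpse, fell by 0.35 (SE 0.15, adjusted p 0.0388). That call was lost without KO replicate 1 (-0.36, 0.0634), KO replicate 2 (-0.25, 0.181) or WT replicate 3 (-0.30, 0.133), which left 1 lower call in place of 2, and with the replicate block (-0.34, 0.0501); the range was 0.0197 to 0.287. Macrophages are rich in lysosomal enzymes, and the macrophage markers given above were higher in the same KO libraries; their part in these rises was not tested.

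Of 11 genes tested for release of core proteins or for binding of the syndecan tail, 6 rose (54.5%) and 3 fell (27.3%). Over all genes tested the shares were 33.7% and 33%. The rise of syntenin-1, Sdcbp (0.11, edgeR adjusted p 0.0355), was lost without any 1 library other than KO replicate 2, with adjusted p up to 0.311. It was also lost with median-of-ratios scaling, without the filter and with DESeq2. The surface metalloprotease Mmp14 rose to 999.2 ± 24.3 CPM in KO, against 728.1 ± 31 CPM in WT (0.46, SE 0.04, edgeR adjusted p 7.16e-12; SD, n = 3 each), and Mmp2 rose by 0.37 (SE 0.04). The sheddase Adam17 fell by 0.31 (SE 0.05), and Adam10 was not called (0.04, SE 0.04). Among proteins that bind syndecan tails or act with Sdc4, Gipc1 rose by 0.53 (SE 0.05), Tiam1 by 0.43 (SE 0.07) and protein kinase C alpha, Prkca, by 0.31 (SE 0.07). Syntenin-2 (Sdcbp2) fell by 1.45 (SE 0.25) and was below 3 CPM in both genotypes, at 0.976 CPM in KO and 2.67 CPM in WT.

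**Figure D4:**
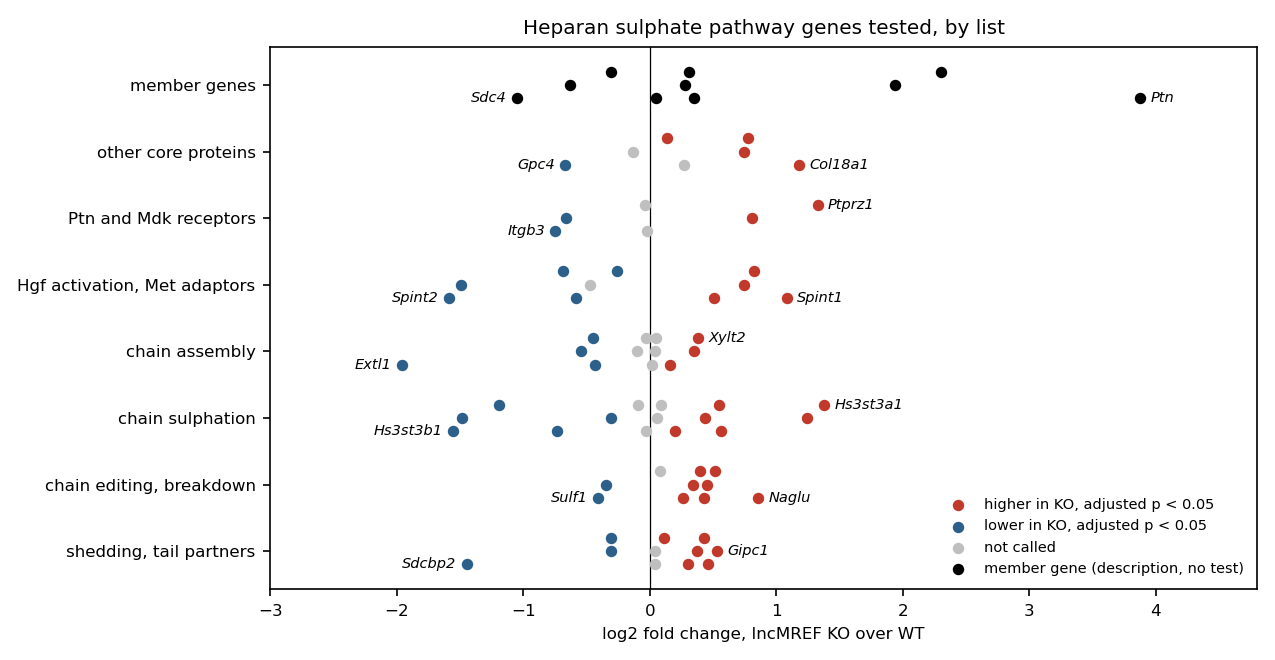
Log2 fold change, lncMREF KO over WT, of the members (black, described with no test) and of the 71 other pathway genes tested, by list; red and blue dots are genes called higher and lower in KO at an adjusted p under 0.05, and grey dots were not called. The gene at each end of a list is named, and Ptn at 3.88 lies beyond all 71 other genes.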

How the data were processed

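RNA-seq was run on 6 libraries of mouse satellite cells. The submitters' processing notes name mm10, featureCounts 2.0.1 and HISAT2 2.2.1; the steps' order, options, strand setting and annotation release are not stated there. Raw counts by Ensembl gene were deposited in 2 forms, a matrix of 21666 genes and a table for each library. These disagree: of 9941 genes averaging 200 or more counts in the matrix, 5.84% averaged between 0.8 and 1.25 times that value in the tables. The matrix was used because an earlier account of these data found the per-library tables to disagree with their gene labels. Those tables are an alternative.

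Identifiers were matched to GENCODE M21 (21632 matched), which gave symbols, mm10 coordinates and merged exon lengths; shared exonic bases came from bedtools 2.31.1. Promoters are from RefSeq (GRCm38.p6). Genes were filtered by filterByExpr (minimum count 10, total 15), scaled by TMM and tested KO against WT by edgeR 4.0.16 quasi-likelihood in R 4.3.3, with genotype as the only term and Benjamini-Hochberg adjustment over 15518 genes (threshold 0.05). SE is the log2 fold change over the root of F. Log2 CPM profiles used a prior count of 2. The fit was also run on simulated counts in which only a small part of the genes changed, equally in both directions. That differs from these data, so the run does not show how the scaling or the error rate hold here. Replicate pairs differed by more than sampling noise (mean chi-square per gene 3.18 to 5.11). The alternatives were other scalings, no filter, DESeq2 1.42.0, a replicate block, each library left out and the per-library tables.

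The members and lists were chosen with earlier results of these data known. Every member is named; in each list the called genes with the largest rise and fall are named, and other tested genes may be; for Ptn, the 5 nearest profiles are named. Of the genes in the lists, 2 are not reported here by name.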

Additional observations from a re-analysis of the deposited data

How the results depend on the processing

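All 10 members kept their direction under the 11 alternatives that use the matrix. Over the libraries left out in turn, the log2 fold change ran from 3.81 to 3.94 for Ptn, 1.83 to 1.99 for Mdk, -0.65 to -0.60 for Hgf, 0.30 to 0.40 for Met, 0.02 to 0.08 for Sdc1, 0.24 to 0.29 for Sdc2, 0.28 to 0.33 for Sdc3, -1.09 to -1.03 for Sdc4, -0.34 to -0.28 for Gpc1 and 2.21 to 2.47 for Gpc3. With library size only, 8 moved by more than the spread between libraries, by about the shift of the median of all genes: Ptn to 4.05, Hgf to -0.46, Met to 0.52, Sdc1 to 0.22, Sdc2 to 0.45, Sdc3 to 0.48, Sdc4 to -0.88 and Gpc1 to -0.14. The per-library tables could test 3 members, with log2 fold changes of 0.38 for Met, 0.24 for Sdc2 and -0.67 for Gpc1; the cause of the last was not tested. In those tables Met had 1.05 and Sdc2 0.854 times its mean matrix count, Gpc1 had 0.00299 times, and each of the other 7 had a mean below 4 counts. They gave 2691 genes higher and 2745 lower in KO among 9871 tested, and 9 higher and 5 lower among the 33 pathway genes tested; fewer genes could be tested there. Over the other alternatives the pathway lists had 28 to 41 genes higher and 19 to 24 lower. With DESeq2 the Hgf list had 2 higher calls in place of 4, and the breakdown list 1 lower call in place of 2, as it did with library size only and with the replicate block. The labels do not say whether the replicate numbers pair the samples. The deviations of same-numbered libraries correlated at -0.000914, -0.00889 and -0.025, and those of differently numbered ones at -0.0104 to 0.0201. No shared deviation was seen, but with 3 libraries a genotype these values cannot settle whether the samples are paired. With the replicate block 5145 genes were higher and 5064 lower in KO, against 5230 and 5123 without it. Counts of 37 to 50 for Ptn and 75 to 128 for Gpc3 in WT libraries limit the precision of their folds, and genes below about 1 CPM, such as Spint1, rest on few counts.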

Other observations

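Most of the other heparin-binding factors listed here differed in the opposite direction to Ptn and Mdk. The list of 16 secreted factors was drawn up after the first results of these data were seen, and 15 of them could be tested. The counts below therefore describe the genes picked, and nothing is read from them about heparin-binding factors in general. By edgeR's quasi-likelihood test at an adjusted p under 0.05, 12 were lower and 1 was higher in KO, against 33% and 33.7% of all genes tested, with a median log2 fold change of -0.55 against 0.02 over all genes. The fibroblast growth factors Fgf2 and Fgf7 fell, Fgf2 to 29.8 ± 1.62 CPM in KO, against 95.3 ± 2.6 CPM in WT, and Fgf7 to 7.63 ± 0.613 CPM in KO, against 33.8 ± 0.296 CPM in WT (SD, n = 3 each; log2 fold changes -1.68 and -2.14, SE 0.06 and 0.08). Hbegf, a ligand of the epidermal growth factor receptor, fell by 1.21 on the log2 scale (SE 0.06), and the lymphatic growth factor Vegfc by 1.05 (SE 0.08). Fgf9 and Fgf10 fell by 2.52 and 2.55 (SE 0.29 and 0.31), both below 4 CPM in WT. Pdgfb, Pgf and Pdgfa fell by 0.61, 0.55 and 0.36 (SE 0.06, 0.07 and 0.05). Pdgfa shares 26.1% of its exonic bases with other genes and Fgf2 13.2%, so their counts may be uncertain. The chemokine Cxcl12 was the one that rose, to 137.1 ± 5.89 CPM in KO, against 73 ± 1.28 CPM in WT (0.91, SE 0.05). Fgf1 (-0.25, SE 0.22) and Nrg1 (-0.04, SE 0.10) were not called, and Areg was below the filter. The remaining 3 calls were small: Vegfa (-0.20, SE 0.04), Slit3 (-0.12, SE 0.04) and Slit2 (-0.12, SE 0.05). With library size scaling they were lost, and the sign of the Slit genes turned (Vegfa -0.03, Slit3 0.05 and Slit2 0.06), which left 9 lower calls. The Slit2 call was also lost without KO replicate 1 (-0.10, adjusted p 0.0921), KO replicate 2 (-0.09, 0.118), WT replicate 1 (-0.12, 0.0733) or WT replicate 2 (-0.12, 0.0502), within a range of 0.00634 to 0.295. In the per-library tables, whose rows may not count the genes they name, the sign turned for Hbegf (0.31), Pgf (0.02), Pdgfb (0.30) and Slit2 (0.77). Pgf and Pdgfb were not called there, and neither was the Fgf7 fall (-0.03). Of the 5 factors tested there, 2 were called higher and 0 lower in KO. The cell type markers given above differed between the same libraries, and their part in these falls was not tested.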
